A study of Mus musculus with 36 samples.

Results

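Chemokines and their receptors were followed through 12 stages of the mouse heart. The members were all genes on the array whose symbol begins with *Ccl*, *Cxcl*, *Ccr* or *Cxcr* and a number. An array reads each gene through 1 or more probe sets, groups of short probes for the same transcript, and the probe set with the highest mean over the 36 arrays stood for its gene. This gave 47 of the 20701 genes with a gene ID, read by 73 of 45101 probe sets: 18 CC ligands, 13 CXC ligands, 11 CC receptors and 5 CXC receptors.

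Hearts of OF1 mice had been taken daily between E10.5 and E19.5, from young adults of 10 weeks and from old adults, which were 14 months old by the sample labels and 10 months old by the paper. Each stage had 3 arrays: 3 pools of mixed sex at E10.5 and E11.5, and from E12.5 on a female, a male and a mixed array. RNA came from homogenised whole hearts, so that all cells of the organ contribute, and with bulk tissue fewer cells of a type and less RNA per cell cannot be told apart. The protocol field of the labels names liver, but none of 4 liver genes had a stage mean above log2 5, while 5 cardiomyocyte genes averaged 11.66 at E10.5 and 11.73 in old adults.

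Chemokines are small secreted proteins that direct the movement of leukocytes and progenitor cells along gradients. They are named for the spacing of their first cysteines (CC or CXC), and act through G protein-coupled receptors on the responding cells. Many are made on demand by activated macrophages, endothelium and fibroblasts, whereas others, such as *Cxcl12*, are produced constantly by stromal cells. In the heart they are known for guiding vessel growth in the embryo and for keeping and recruiting macrophages, neutrophils and lymphocytes in the adult.

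Values are log2 intensities, and the study took a mean above 5 as its limit of expression. Of the 47 members, 12 had a mean above 5 in at least 1 stage (25.5%), against 54.7% of all genes. These were the CXC ligands *Cxcl12*, *Cxcl1*, *Cxcl16* and *Cxcl13*, the CC ligands *Ccl27a*, *Ccl6*, *Ccl8*, *Ccl9*, *Ccl4*, *Ccl24* and *Ccl2*, and the receptor *Ccr2*. Only *Cxcl12*, *Cxcl1* and *Cxcl16* were above 5 in every stage, and 7 members were above 5 in adults only. The number above 5 was 4 at each stage from E10.5 to E14.5, 5 from E15.5 to E19.5, 8 in young adults and 11 in old adults.

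**Figure D1:**
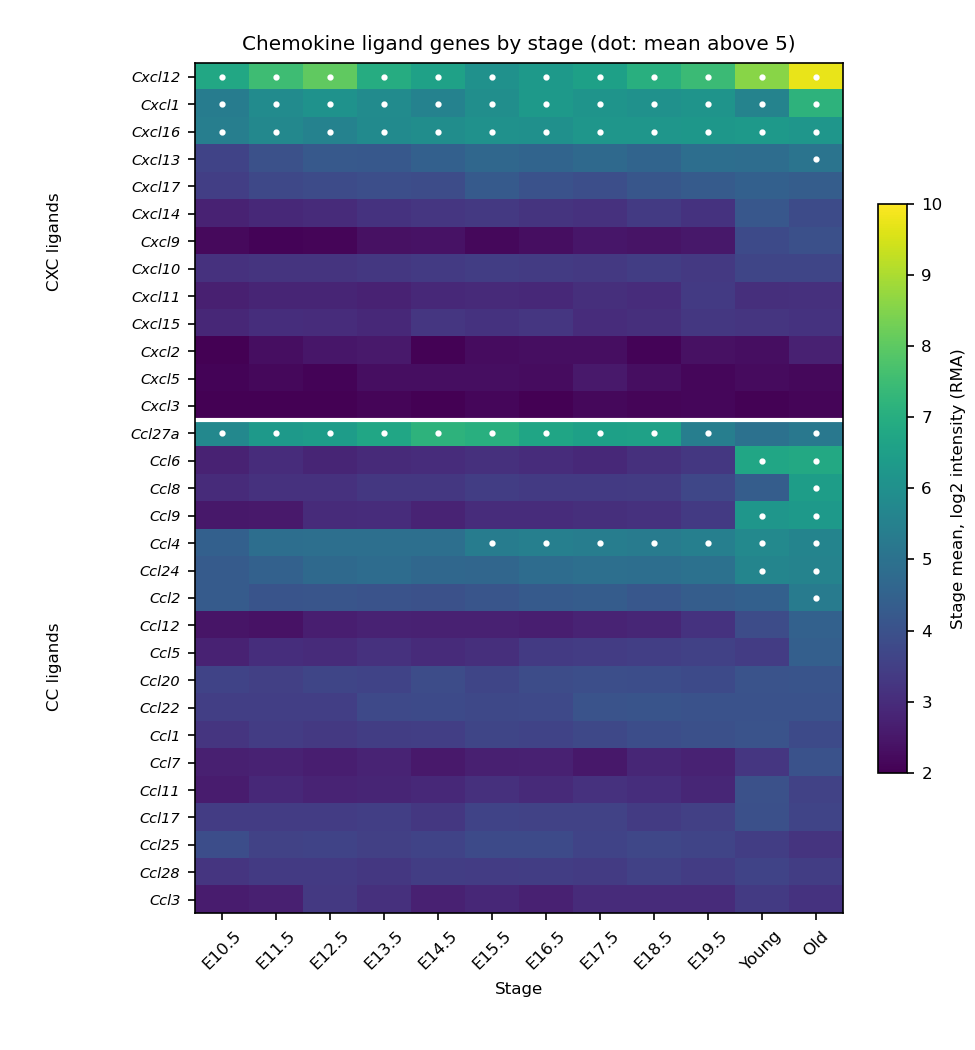
Stage means of the CXC and CC ligands (rows, grouped by class and ordered by their highest mean) over the 12 stages (columns), with the log2 intensity in colour and a white dot where the mean is above 5. Dots run through all stages only for *Cxcl12*, *Cxcl1* and *Cxcl16*, and most rows hold none.

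The other 35 members stayed under 5 in every stage, 24 of them under 4 and 8 under 3. Among the ligands these were *Ccl1*, *Ccl3*, *Ccl5*, *Ccl7*, *Ccl11*, *Ccl12*, *Ccl17*, *Ccl20*, *Ccl22*, *Ccl25* and *Ccl28*, with highest stage means between 3.35 and 4.50, and *Cxcl2*, *Cxcl3*, *Cxcl5*, *Cxcl9*, *Cxcl10*, *Cxcl11*, *Cxcl14*, *Cxcl15* and *Cxcl17*, between 2.17 and 4.45. Among the receptors they included *Ccr1*, *Ccr3*, *Ccr7* and *Ccr9*, with highest stage means of the CC receptors under 5 between 2.40 and 4.45, and all 5 CXC receptors (*Cxcr2*, *Cxcr3*, *Cxcr4*, *Cxcr5* and *Cxcr6*), between 2.64 and 4.52. In 3 of the 35 genes a single array passed 5: *Cxcr4* in the young adult female (5.01), *Ccl12* in the old adult male (5.49) and *Ccl5* in the old adult female (5.05).

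Some arrays stood apart from the other arrays of their stage. On the mixed arrays of E17.5, E18.5 and E19.5, 6.93%, 5.90% and 3.10% of the genes above 5 differed by more than 1 from the mean of the other 2 arrays, and on the old adult male, mixed and female arrays 3.38%, 4.15% and 3.13%. On the other 30 arrays this share was at most 2.11%. Low values also drifted with stage: the median of all genes that stayed under 5 was 2.82 at E10.5 and 3.23 in young adult hearts, and that of the members under 5 was 2.62 and 3.51.

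*Cxcl12*, the stromal ligand of *Cxcr4* and of the scavenging receptor *Ackr3*, had a course of its own. At E10.5 its 3 arrays read 6.93, 6.97 and 6.48, and at E12.5 8.10, 8.08 and 7.97. At E15.5 they read 6.14, 5.78 and 6.18, and at E19.5 7.77, 7.96 and 6.66. Every array of E12.5 was thus above every array of E10.5 and of E15.5, and the mixed array was the lowest at E19.5. Young adult hearts read 8.23 (male), 8.66 (mixed) and 8.82 (female), and old adult hearts 9.53, 10.41 and 9.29, so that all 6 adult arrays were above all 30 embryonic arrays. *Cxcl12* changed over the embryonic stages (limma F, adjusted p = 5.77e-05), although none of its daily steps passed: the largest, from E12.5 to E13.5, fell by 1.09 (adjusted p = 0.0704).

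Against young adults, *Cxcl12* had lower means at every embryonic stage. The difference passed at all of them except E12.5 (-0.52, adjusted p = 0.152), which passed after quantile renormalization (-0.84, adjusted p = 0.0134) and after centring of each array (-0.95, adjusted p = 0.00269). It ran from a log2 difference of -1.78 (SE 0.31, adjusted p = 1.35e-05) at E10.5 to -2.54 (SE 0.31, adjusted p = 4.82e-08) at E15.5 and -1.11 (SE 0.31, adjusted p = 0.00664) at E19.5, where it was -0.71 and did not pass without the mixed array (adjusted p = 0.0945). At E14.5 to E17.5 it passed the limits of the study, an adjusted p under 1e-05 with an absolute log2 difference above 2, for a gene whose mean passed 5 in some stage. E10.5 passed these limits too after quantile renormalization (-2.17, adjusted p = 9.35e-08) and after centring (-2.30, adjusted p = 9.95e-09). *Cxcl12* was also 2.28 higher in old adults than at E19.5 (SE 0.31, adjusted p = 7.00e-07).

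A second probe set of *Cxcl12* with high values followed the same course up to E15.5 and then parted from the first. Its mean was 8.34 ± 0.21 (SD, n = 3) on E12.5, 6.02 ± 0.27 on E15.5 and 6.03 ± 0.67 on E19.5, and in adults 6.98 ± 0.42 (young) and 6.98 ± 0.63 (old). Its E12.5 mean was above that of E19.5 by 2.31 (SE 0.34, adjusted p = 4.70e-06), its E10.5 mean did not differ detectably from young adults (0.06, SE 0.34, adjusted p = 0.877), and old and young adults differed by 0.00 (SE 0.34, adjusted p = 1.00). The gap of the first minus the second was -0.25 ± 0.13 (SD, n = 3) on E10.5, 0.01 ± 0.19 on E15.5 and 1.43 ± 0.21 on E19.5. It was 1.59 ± 0.11 in young adults and 2.77 ± 1.08 in old adults. The remaining probe set had stage means from 3.21 to 3.67, with no difference from young adults that passed. Which transcript forms each reads was not tested.

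*Cxcr4*, the signalling receptor of *Cxcl12*, stayed under 5, with means of 4.19 on E14.5 and 3.89 on E19.5, and of 4.52 in young adults and 4.13 in old adults. It was lower on E11.5 than in young adults (a log2 difference of -1.01, SE 0.25, adjusted p = 0.000921). *Ackr3*, the atypical receptor of *Cxcl12*, which is no member by its symbol, read 7.47, 7.93 and 6.79 at E10.5, 8.08, 8.45 and 8.22 at E12.5 and 5.23, 4.89 and 5.17 at E17.5. In adults it read 8.54, 8.98 and 9.23 (young male, mixed and female) and 10.10, 9.37 and 9.34 (old). Like *Cxcl12* it was thus higher on all E12.5 arrays than on all arrays of E15.5 to E19.5 and highest in adults. It was lower than in young adults by 1.52 at E10.5 and by 2.86 at E19.5 (a log2 difference of -2.86, adjusted p = 8.63e-10), and old and young adults did not pass (0.68, adjusted p = 0.119).

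**Figure D2:**
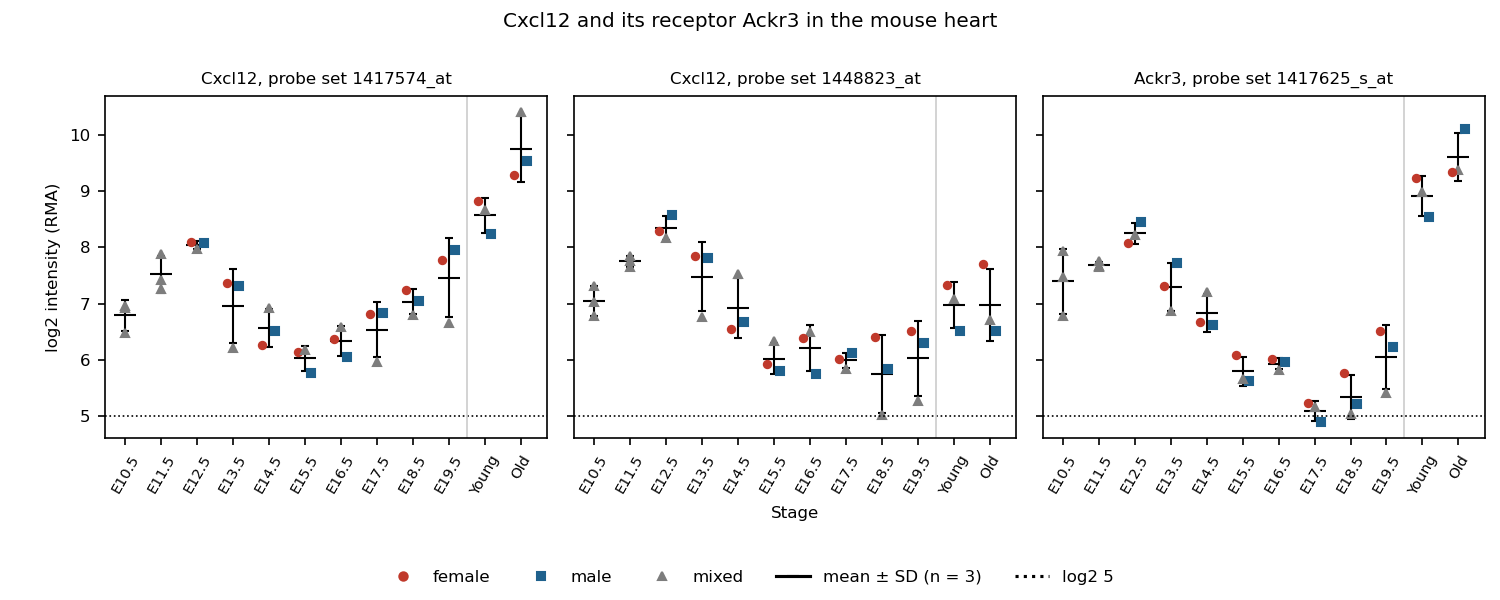
Log2 intensity (y axis) of the 2 high probe sets of *Cxcl12* and of *Ackr3* on all 36 arrays, by stage (x axis), with symbols for the sex label, bars for mean ± SD and a dotted line at 5. All 3 panels peak in the embryo at E12.5, but from E19.5 to old adults the first *Cxcl12* panel climbs from 7.46 to 9.74 while the second goes from 6.03 to 6.98.

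*Cxcl16* and *Cxcl1* were the other CXC ligands above 5 throughout, at the probe set that stood for each gene. *Cxcl16*, a membrane-bound ligand of *Cxcr6*, read 5.35, 5.25 and 5.70 on E10.5, 6.06, 6.46 and 6.19 on E19.5, and 6.30, 6.56 and 6.13 in the young adult. It was lower than in young adults at E10.5 to E13.5, by 0.90 at E10.5 (a log2 difference of -0.90, SE 0.20, adjusted p = 0.000395), and *Cxcr6* stayed under 3 in every stage. The other probe set of *Cxcl16* had a highest stage mean of 4.73. It read 3.66, 3.19 and 3.43 on E10.5, 3.30, 3.62 and 3.41 on E19.5, and 3.90, 4.15 and 4.02 in the young adult. In the old adult it read 4.43, 5.16 and 4.59, each above each young array, and the first probe set 5.88, 6.56 and 6.21, overlapping the young arrays. The other probe set passed over the 12 stages (limma F, adjusted p = 4.19e-08) but not over the embryonic stages (adjusted p = 0.441). *Cxcl1*, an attractant of neutrophils through *Cxcr2*, scattered among replicates: at E13.5 it read 4.94, 5.31 and 7.37, and at E17.5 5.81, 5.58 and 6.99. The mixed array was the high one both times, and the mean over 7 inflammation and immediate early genes was also high on it (7.36 against 5.51 and 5.76 at E13.5, and 6.81 against 5.13 and 5.04 at E17.5). Their part in the scatter was not tested. At this probe set *Cxcl1* did not pass the test over the 12 stages (limma F, adjusted p = 0.138). Of its 2 other probe sets, 1 passed (adjusted p = 0.0119) and 1 did not (adjusted p = 0.0871). These were under 5 at E10.5 (4.56, 4.80 and 4.80, and 2.49, 4.17 and 3.59). *Cxcl13*, which attracts B lymphocytes through *Cxcr5*, had means of 3.62 ± 0.42 (SD, n = 3) on E10.5, 4.88 ± 0.34 on E19.5 and, in adults, 4.85 ± 0.19 (young) and 5.07 ± 1.19 (old), and was lower at E10.5 than in young adults by 1.23 (a log2 difference of -1.23, SE 0.39, adjusted p = 0.00698).

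*Ccl6* and *Ccl9*, rodent CC ligands of *Ccr1* that are known from myeloid cells, were under 5 on every embryonic array and above 5 on every adult array. *Ccl6* lay between 2.56 and 3.40 on the 30 embryonic arrays, with a median of 2.95, and read 6.07, 7.13 and 7.03 in young and 6.65, 6.88 and 6.95 in old adults. *Ccl9* lay between 2.34 and 3.81 in the embryo, with a median of 2.84, and read 6.11, 6.06 and 6.39 in young and 6.64, 5.94 and 6.43 in old adults. For both genes the adult and embryonic arrays were more than 2 log2 units apart, even where single embryonic arrays of *Ccl9* were high (E17.5 mixed, 3.81). Old and young arrays overlapped.

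Against young adults, *Ccl6* was lower by 3.97 at E10.5 (a log2 difference of -3.97, SE 0.19, adjusted p = 2.27e-17) and still by 3.45 at E19.5 (-3.45, SE 0.19, adjusted p = 4.48e-15). *Ccl9* was lower by 3.68 at E10.5 (-3.68, SE 0.25, adjusted p = 1.01e-13) and by 2.82 at E19.5 (-2.82, SE 0.25, adjusted p = 2.34e-10). Their other probe sets gave the same direction, with differences at E10.5 of -3.19 (*Ccl6*, adjusted p = 2.02e-15) and -1.30 (*Ccl9*, adjusted p = 3.81e-07), the latter between values that never exceeded 5. Over the 10 embryonic stages neither gene passed the test (limma F, adjusted p = 0.132 and 0.0990). Compared directly, both were lower at E10.5 than at E19.5, between values under 5. The log2 differences were -0.51 for *Ccl6* (limma, adjusted p = 0.0285) and -0.86 for *Ccl9* (adjusted p = 0.00608). That of *Ccl6* did not pass after quantile renormalization (-0.29, adjusted p = 0.230), nor that of *Ccl9* without the mixed E19.5 array (-0.68, adjusted p = 0.0558).

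In the order of the members alone, *Ccl6* and *Ccl9* lie between *Ccl5* and *Ccl3* on chromosome 11 (order *Ccl5*, *Ccl9*, *Ccl6*, *Ccl3*, *Ccl4*). Genes that are no members were not placed in this order. The same chromosome also holds *Ccl2*, *Ccl7*, *Ccl11*, *Ccl12*, *Ccl8* and *Ccl1*. *Ccl3*, next to *Ccl6* in this order, had means of 2.61 on E10.5, 2.98 on E19.5 and 3.35 in the young adult. *Ccl4* (macrophage inflammatory protein-1 beta), a ligand made by activated macrophages, read 4.49, 4.29 and 4.58 on E10.5, 5.15, 5.51 and 5.68 on E19.5, and 5.98, 5.27 and 6.06 in the young adult. It was lower than in young adults by 1.32 at E10.5 (a log2 difference of -1.32, SE 0.18, adjusted p = 2.01e-07), and at E19.5 the groups overlapped.

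The macrophage markers were higher in adults too, and part of their increase lay within the embryo, a change that was not tested for them. The mean over 11 macrophage genes was 3.54 on E10.5 and 4.80 on E19.5, and in adults 6.76 (young) and 6.66 (old), with single adult arrays from 6.19 to 7.11. Of these genes, 11 of 11 were lower at E10.5 and 10 of 11 at E19.5 than in young adults at an adjusted p under 0.05. *Csf1r*, the receptor that macrophages need to survive, had means of 4.70 on E10.5, 8.04 on E13.5, 7.72 on E19.5 and 9.15 in young adults, so that most of its increase lay before E13.5. *Mrc1*, the mannose receptor, had means of 5.54 on E13.5 and on E19.5 and of 7.78 in young adults. The mean of the 7 interferon-responsive genes found was 2.93, 3.48, 5.47 and 6.35 on E10.5, on E19.5 and in young and old adults. All 7 were lower both at E10.5 and at E19.5 than in young adults. The part of either list in the difference of *Ccl6* and *Ccl9* was not tested.

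*Ccl24* (eotaxin-2), *Ccl12* and *Cxcl9* were also lower in the embryo. *Ccl24*, which attracts eosinophils through *Ccr3*, read 4.25, 4.13 and 4.55 at E10.5 and 5.47, 5.53 and 5.96 in young adults, a log2 difference of -1.34 (SE 0.17, adjusted p = 7.27e-08), and of -0.66 at E19.5 (SE 0.17, adjusted p = 0.00365). *Ccl12*, a *Ccr2* ligand, lay between 2.33 and 3.33 in the embryo and between 3.58 and 5.49 in adults. *Cxcl9*, an interferon-induced ligand of *Cxcr3*, lay between 1.92 and 2.71 in the embryo and between 3.38 and 4.64 in adults. Both were separated without overlap, but neither reached a stage mean of 5. Another probe set of *Cxcl14*, which passed 5 on single adult arrays, had means of 2.06 ± 0.04 (SD, n = 3) on E10.5, 4.61 ± 0.67 in young and 4.94 ± 0.65 in old adults, a log2 difference of -2.55 between E10.5 and young adults (adjusted p = 1.03e-09).

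In all, 6 members (*Ccl6*, *Ccl8*, *Ccl9*, *Ccl12*, *Cxcl9* and *Cxcl12*) had all adult arrays above all embryonic arrays (5.35% of all genes did), and 0 had all adult arrays below (7.01% of all genes). *Ccr2*, the receptor of *Ccl2*, *Ccl7* and *Ccl12* on monocytes, was the only receptor with a stage mean above 5. It read 4.10, 4.05 and 4.41 at E10.5 and 5.22, 5.42 and 4.67 in young adults, a log2 difference of -0.92 (SE 0.22, adjusted p = 0.000631), and its 3 other probe sets stayed under 4.

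*Ccl27a*, a ligand of *Ccr10* that is known for drawing T lymphocytes to the skin, ran the other way. It read 5.82, 5.60 and 5.82 at E10.5, 7.18, 7.23 and 7.06 at E14.5 and 7.17, 6.79 and 7.15 at E15.5. At E18.5 it still read 6.49, 6.63 and 6.64, at E19.5 5.49, 5.15 and 5.68, and in young adults 5.11, 4.87 and 5.00. All E19.5 arrays were below all E18.5 arrays, and all young adult arrays below all arrays of E10.5. At E10.5 the difference was 0.75 (SE 0.22, adjusted p = 0.00439), which did not pass after quantile renormalization (0.46) or centring of each array (0.22). The difference from young adults was 2.16 at E14.5 (SE 0.22, adjusted p = 1.39e-09) and 2.04 at E15.5 (SE 0.22, adjusted p = 4.80e-09), past the study's limits. After quantile renormalization these were 2.00 and 1.94, and after centring 1.84 and 1.77, under the limit on size though still past that on p. From E18.5 to E19.5 it fell by 1.15 (SE 0.22, adjusted p = 0.00596), which was the only daily step of any member to pass an adjusted p under 0.05 (5.30% of all genes passed one); without the E19.5 male array it did not pass. The x in the name of its probe set marks probes that may also match other sequences, so near-identical copies of the gene cannot be told apart from it.

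**Figure D3:**
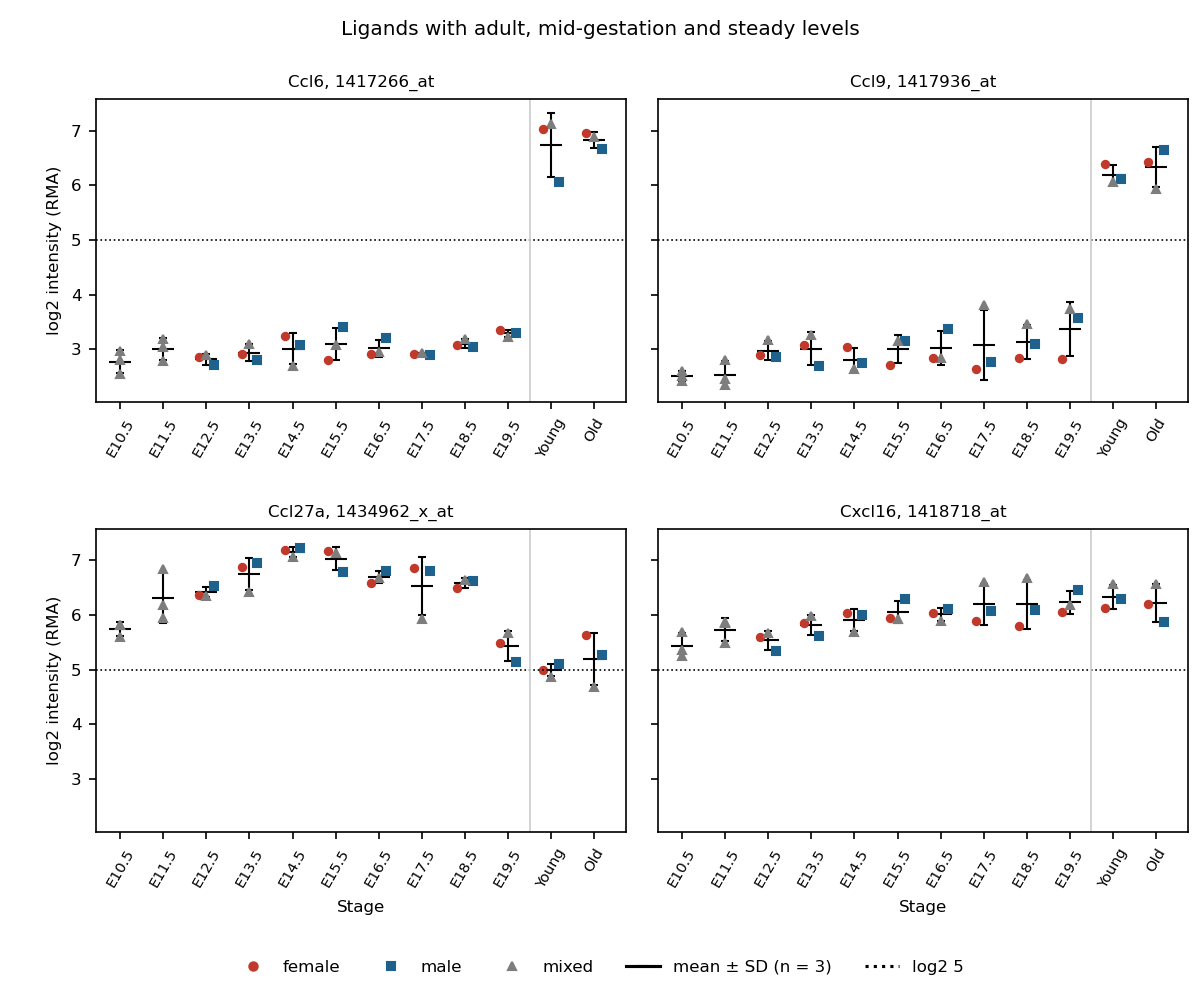
Log2 intensity (y axis) of *Ccl6*, *Ccl9*, *Ccl27a* and *Cxcl16* on all 36 arrays, by stage (x axis), with symbols for the sex label, bars for mean ± SD and a dotted line at 5. *Ccl6* and *Ccl9* are at or below 3.81 in the embryo and at or above 5.94 in adults, *Ccl27a* peaks with a mean of 7.16 at E14.5, and *Cxcl16* stays between 5.25 and 6.69.

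Counted over the list, 4 of 47 members passed the study's limits against young adults in at least 1 embryonic stage (10.0% of all genes did). These were *Ccl6* and *Ccl9*, lower in all 10 stages, *Cxcl12*, lower at E14.5 to E17.5, and *Ccl27a*, higher at E14.5 and E15.5. Against E19.5, 4 members passed in at least 1 stage (5.02% of all genes): *Ccl6* and *Ccl9*, higher in both adult groups, and *Ccl8* and *Cxcl12*, higher in old adults. At an adjusted p under 0.05 and no limit on size, 34 members were lower (38.6% of all genes) and 2 higher (28.5%) at E10.5 than in young adults. The number lower was 24 after quantile renormalization and 44 after centring each array, settings that moved the median difference of all genes from -0.21 to -0.11 and -0.74. At E19.5, 11 members were lower than in young adults (14.7%) and 0 higher (17.0%).

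The median log2 difference between E10.5 and young adults was -0.68 over the members and -0.21 over all genes. For the 35 members under 5 in every stage it was -0.58, against -0.39 for all genes of that kind. The 12 others are not set beside other genes here, since 7 of them passed 5 in adults only. Over the 12 stages 34 members passed the F test at an adjusted p under 0.05 (72.2% of all genes), and over the 10 embryonic stages 20 (55.3%).

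The promoters of some ligands described here are printed from RefSeq (build GRCm38.p6). It held windows of 250 bases before to 50 after the start for 33 of the 47 members. The first 3 ligands below separated adult from embryonic hearts and lie on chromosome 11. *Cxcl12*, on chromosome 6, did so at its first probe set but not at its second. *Cxcl1* is shown for its higher level in old adults. That difference did not pass after quantile renormalization or centring, nor at its other probe sets. Capitals mark matches on either strand to the letters TATAAA or to the NF-kB consensus, and adjoining matches run together.
Ccl6 (chr11:83593038-83593337, minus strand): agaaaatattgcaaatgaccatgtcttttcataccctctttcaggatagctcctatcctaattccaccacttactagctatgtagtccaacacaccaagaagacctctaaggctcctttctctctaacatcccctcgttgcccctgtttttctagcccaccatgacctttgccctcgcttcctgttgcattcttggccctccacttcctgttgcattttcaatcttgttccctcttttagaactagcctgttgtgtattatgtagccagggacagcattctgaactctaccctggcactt
Ccl9 (chr11:83578587-83578886, minus strand): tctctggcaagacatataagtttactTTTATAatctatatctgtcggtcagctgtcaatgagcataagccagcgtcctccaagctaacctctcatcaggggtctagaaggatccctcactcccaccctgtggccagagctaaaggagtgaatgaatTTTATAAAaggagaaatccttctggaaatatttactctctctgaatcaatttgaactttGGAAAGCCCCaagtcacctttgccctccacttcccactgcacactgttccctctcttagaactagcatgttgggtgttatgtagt
Ccl8 (chr11:82114935-82115234, plus strand): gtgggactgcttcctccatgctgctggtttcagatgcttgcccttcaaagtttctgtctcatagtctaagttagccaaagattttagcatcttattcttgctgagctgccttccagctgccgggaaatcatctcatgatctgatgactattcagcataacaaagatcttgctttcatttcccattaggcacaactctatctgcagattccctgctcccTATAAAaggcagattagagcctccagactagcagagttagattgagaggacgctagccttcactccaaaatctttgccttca
Cxcl12 (chr6:117168285-117168584, plus strand): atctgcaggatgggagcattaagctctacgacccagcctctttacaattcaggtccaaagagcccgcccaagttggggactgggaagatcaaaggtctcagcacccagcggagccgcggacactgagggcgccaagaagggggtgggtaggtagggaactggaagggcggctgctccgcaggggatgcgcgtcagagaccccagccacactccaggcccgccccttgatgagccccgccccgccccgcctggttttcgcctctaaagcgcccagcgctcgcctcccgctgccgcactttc
Cxcl1 (chr5:90890995-90891294, plus strand): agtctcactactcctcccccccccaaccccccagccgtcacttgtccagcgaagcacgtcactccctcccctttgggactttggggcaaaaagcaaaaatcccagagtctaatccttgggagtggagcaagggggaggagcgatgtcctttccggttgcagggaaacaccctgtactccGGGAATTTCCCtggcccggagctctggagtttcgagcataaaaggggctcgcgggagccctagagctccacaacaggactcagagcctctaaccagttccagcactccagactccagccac

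The windows differed in base content. Those of *Ccl6*, *Ccl9* and *Ccl8* held 2 CG pairs each, that of *Cxcl1* 10 and that of *Cxcl12* 20, where the median was 3 over the members' windows and 7 over all 32851 windows. TATAAA lay 32 to 27 bases before the start in *Ccl8* and farther upstream in *Ccl9*, and it was found in 10 of 33 members (30.3%) and in 15.7% of all genes with a window. The NF-kB consensus was found on both strands of *Cxcl1*, in overlapping letters 71 to 61 bases before the start, and on the reverse strand of the *Ccl9* window 35 to 26 bases before it. It was in 9 of 33 members (27.3%) and in 5.1% of all genes. These are matches of letters only, and the windows of *Ccl6* and *Cxcl12* held neither.

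Old and young adult hearts were compared to see what changes with age. No member passed the study's limits, which 0.00483% of all genes did in each direction. At an adjusted p under 0.05, 5 members were higher in old adults (4.46% of all genes) and 0 lower (3.13%). The number higher was 6 after quantile renormalization and 3 after centring of each array. The 5 were *Ccl8*, *Cxcl12*, *Cxcl1* and *Ccl2*, which are 4 of the 12 members with a stage mean above 5 (7.33% of such genes), and *Ccl5*. Of these, *Ccl8* and *Ccl2* had a mean above 5 in old adults only. They are thus among the 12 only through the group tested as higher, and no conclusion is drawn from 4 of 12 beside 7.33%.

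*Ccl8* (monocyte chemoattractant protein 2), which acts through *Ccr8* in the mouse, read 4.15, 4.56 and 4.36 in young males, mixed and females and 4.97, 7.71 and 6.72 in old ones. Each old array was above each young array, the male by the least. The log2 difference was 2.11 (SE 0.32, adjusted p = 0.000148), ranging from 1.49 without the old mixed array to 2.86 without the old male (adjusted p = 4.75e-11, past the study's limits). It was 2.75 against E19.5 (SE 0.32, adjusted p = 4.53e-08). *Ccl2* lies on the same chromosome as *Ccl8* and is the main ligand of *Ccr2*. It read 4.38, 4.62 and 4.36 in young and 6.04, 5.21 and 4.70 in old adults, with the old male highest. Its difference was 0.86 (SE 0.20, adjusted p = 0.00926), and without the old male 0.50 (adjusted p = 0.109).

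*Ccl7* and *Ccl12*, which lie between these genes in order and also act on *Ccr2*, were highest in the old male as *Ccl2* was. *Ccl7* read 3.21, 3.31 and 3.31 in young and 4.86, 4.17 and 2.99 in old adults. *Ccl12* read 4.18, 3.82 and 3.58 in young and 5.49, 3.95 and 4.05 in old adults. In both genes old and young arrays overlapped, and neither difference passed. *Ccl11*, between *Ccl7* and *Ccl12* in gene order, was instead lower on every old array than on every young array (3.78, 3.46 and 3.46 against 3.89, 4.29 and 3.82), and did not pass either.

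*Cxcl1* read 4.98, 5.61 and 6.13 in young and 7.84, 7.46 and 6.23 in old adults, a difference of 1.60 (SE 0.49, adjusted p = 0.0435), which did not pass after quantile renormalization (1.47, adjusted p = 0.0724) or centring (1.46, adjusted p = 0.0667). It did not pass either without the young male, young mixed, old male or old mixed array (differences from 1.27 to 1.62, adjusted p from 0.0914 to 0.192), nor without the mixed array of E12.5 or the female array of E16.5 (adjusted p = 0.0511 and 0.0506). Its 2 other probe sets did not pass (differences of 1.79 and 0.60, adjusted p = 0.0673 and 0.205). *Cxcl12* was higher in old adults by 1.17 at its first probe set (SE 0.31, adjusted p = 0.0192), by 0.84 without the old mixed array (adjusted p = 0.127) and by 1.00 without the young male (adjusted p = 0.0920). *Ccl5* (RANTES), a ligand known from T lymphocytes, read 3.80, 3.11 and 3.39 in young and 3.74, 4.43 and 5.05 in old adults, a difference of 0.97 (SE 0.23, adjusted p = 0.0101), with the groups overlapping.

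With the 6 adult arrays alone and the sex label as replicate block, none of the differences of *Ccl8*, *Cxcl12*, *Cxcl1* and *Ccl2* passed (adjusted p = 0.120, 0.139, 0.183 and 0.229). All old arrays were above all young arrays in 5 members (10.8% of all genes) and below in 5 (9.78%). The differences of *Ccl6* and *Ccl9* with age were 0.09 and 0.15 and did not pass (adjusted p = 0.829 and 0.771).

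**Figure D4:**
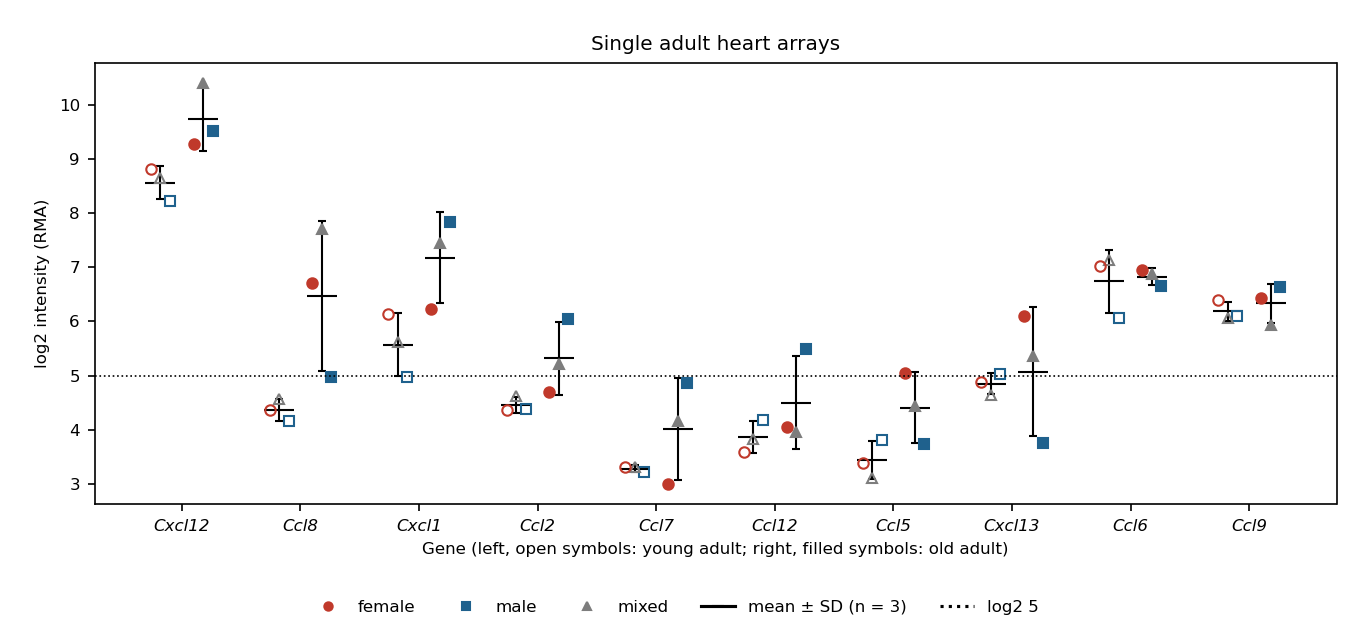
Log2 intensity (y axis) on the 6 single adult arrays for 10 ligands (x axis), young adults with open symbols at the left and old adults with filled symbols at the right of each gene, with bars for mean ± SD. The old male array is lowest of the 3 for *Ccl8* (4.97), *Cxcl13* (3.76), *Ccl5* (3.74) and *Ccl6* (6.65). It is highest for *Ccl2* (6.04), *Ccl7* (4.86), *Ccl12* (5.49), *Cxcl1* (7.84) and *Ccl9* (6.64). *Ccl6* and *Ccl9* overlap between the ages.

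The single old arrays thus differed in which ligands were high. *Cxcl13* read 5.02, 4.64 and 4.89 in young and 3.76, 5.36 and 6.09 in old adults, and its other probe set 3.05, 3.68 and 3.17 in young and 3.16, 4.96 and 6.97 in old adults. In the mixed and female old hearts *Cxcl13*, *Ccl8* and *Ccl5* were high, and in the male and mixed old hearts *Cxcl1*, *Ccl2* and *Ccl7*. At *Cxcl13* the higher probe set did not pass between the ages, and the other did (1.72, SE 0.43, adjusted p = 0.0129).

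Markers of other cells also differed among these arrays. *Ms4a1*, which marks B lymphocytes, read 2.80, 6.71 and 4.64 in the old male, mixed and female hearts and 2.68, 2.48 and 2.54 in the young ones, whereas the mean over all 6 B lymphocyte genes ranged from 3.88 to 5.21 in old and from 3.93 to 4.14 in young adults. *Cd79a* was at or below 4.10 on all 6 arrays. The mean over 7 inflammation and immediate early genes was 7.12, 6.51 and 5.81 in the old male, mixed and female hearts and 5.34 to 5.90 in young ones. Among them *Egr1* (11.37, 10.47 and 9.02 in old, 8.22, 8.19 and 8.74 in young adults) and *Ptgs2* (7.47, 5.21 and 5.19 in old, 4.08, 3.31 and 4.58 in young) were highest in the old male. Of the 7 genes only *Ptgs2* passed between the ages (adjusted p = 0.00409), *Egr1* did not (adjusted p = 0.131), and the means of *Fos* differed by -0.06. The mean over 6 neutrophil and monocyte genes was 3.96, 4.66 and 3.55 in old and 3.34 to 3.52 in young adults, and *S100a8* of neutrophils and monocytes read 5.23, 6.81 and 3.42 in old and 2.97, 3.60 and 3.05 in young adults. Of the 6 genes, *S100a8* and *S100a9* were higher in old adults (limma, adjusted p = 0.0215 and 0.00398). *Elane*, *Ngp*, *Mpo* and *Ltf* differed by -0.22, -0.27, 0.01 and 0.12 and did not pass. The mean over 9 T lymphocyte genes was 4.15 in old and 4.17 in young adults, and 0 of 11 macrophage genes passed between the ages. The interferon-responsive genes averaged 6.03 to 6.64 on the old and 5.34 to 5.61 on the young arrays, and 4 of the 7 were higher in old adults. The mean over 7 endothelial genes was 8.02, 8.48 and 7.80 in the old male, mixed and female hearts and 7.38 to 7.55 in young ones, highest on the old mixed array as *Cxcl12* was, and 2 of the 7 passed (*Pecam1* by 1.19 and *Kdr* by 0.81, adjusted p = 0.0140 and 0.00720). *Wt1* of the epicardium was higher in old adults by 1.84 (adjusted p = 8.15e-05), the only one of 4 epicardial genes to pass. The mean over 5 fibroblast genes was 8.57, 7.70 and 8.78 in old and 8.51 to 9.15 in young adults, with 1 of the 5 lower in old adults. The part of these markers in the ligands' differences was not tested.

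No member passed an adjusted p under 0.05 for male minus female over 9 pairs from E13.5 to old adults (0.0435% of all genes did), and 1 did at an unadjusted p under 0.05 (7.89%). It was *Cxcr3*, higher in males by 0.29 (limma, adjusted p = 0.555). Whether the male to female difference itself differed between adults and embryos was tested as an interaction, which 0 members passed (0.613% of all genes) and 10 at an unadjusted p under 0.05 (14.1%). *Ccl12* came nearest, with 1.02 (limma, adjusted p = 0.0563), followed by *Ccl8* with -0.98 (adjusted p = 0.126). Only 2 of the 9 pairs are adult.

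Around the members, 38 other genes of the chemokine system were on the array, 24 of them with a stage mean above 5. Of the 38, 7 were higher (28.5% of all genes) and 22 lower (38.6%) at E10.5 than in young adults at an adjusted p under 0.05. At E19.5, 4 were higher (17.0%) and 8 lower (14.7%), and in old against young adults 4 were higher (4.46%) and 1 lower (3.13%). The platelet chemokines *Ppbp* and *Pf4* were lower at E19.5 than in young adults by 3.13 and 1.34 (log2 differences of -3.13 and -1.34, adjusted p = 3.16e-08 and 0.000170), with *Ppbp* at 4.02, 4.28 and 3.70 against 7.70, 7.32 and 6.35. *Cmklr1*, the receptor of chemerin, was lower at E19.5 by 1.22 (a difference of -1.22, adjusted p = 8.26e-07).

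Genes of the signalling path ran in both directions. *Mif*, a cytokine that also binds CXC receptors, was higher at E10.5 than in young adults by 3.11 (limma, adjusted p = 6.98e-10). *Cd74*, its receptor and a chaperone of antigen presentation, was lower by 2.05 (a difference of -2.05, adjusted p = 3.25e-09). Between old and young adults *Cd74* was higher by 0.87 (adjusted p = 0.0156), though arrays overlapped (old male 6.03, young mixed 6.39). *Mif* was higher in old adults by 0.37, which did not pass (adjusted p = 0.517), though each old array was above each young array. *Grk3*, a kinase that turns off such receptors, and *Gnai1*, a subunit of the inhibitory G protein, were higher at E19.5 by 1.84 (adjusted p = 2.34e-10) and 1.33 (adjusted p = 7.08e-06). *Gnai2* (10.35 at E19.5, 10.01 in young adults, adjusted p = 0.0662) and *Cx3cr1*, the fractalkine receptor of macrophages (5.11 and 4.96, adjusted p = 0.486), did not pass at E19.5.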

How the data were processed

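Expression was measured on 36 Affymetrix arrays of mouse heart, 3 for each of 12 stages. The authors processed the scans by robust multi-array average (Expression Console, Partek 6.6), and the deposited values are log2 intensities, used here without offset or scaling. Stage groups, sex and age come from the sample labels. The arrays are described as biological replicates, and p-values measure the spread between these arrays, whose number limits the precision. In limma 3.58.1 (R 4.3.3) 12 stage means were fitted to all 45101 probe sets, with Benjamini-Hochberg adjustment within each comparison. Male and female arrays were compared with stage as a block, leaving out E12.5 as the study's methods do. Described singly were members with a stage mean above 5, members with a single array above 5, and listed marker and pathway genes. *Cxcl9*, *Cxcr3*, *Cxcr6*, *Ccl3*, *Ccl7* and *Ccl11* fall outside this rule and were added after their values were seen. Values of 1 member are not reported here. *Ly6g*, *Myh6*, *Plin1*, *Scgb1a1* and *Isg15* were not analysed here. Shares of all genes count 1 probe set per gene ID, and 6937 probe sets had none. Other scalings, filters, limits, blocks and the omission of each array were tried. The procedure was tested on simulated data. The members and lists were chosen with earlier results of these data known. RefSeq coordinates are those of its own build, since the array files name none.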

Additional observations from a re-analysis of the deposited data

How the results depend on the processing

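The 35 members under log2 5 and the 0 passing for male minus female kept these counts within 1.5 times under every alternative run, and no direction reversed. With an adjusted p under 0.05 and no limit on size, the 4 members passing against young adults became 36, the 4 against E19.5 became 31, and the 0 between old and young adults became 5. The share of all genes was not counted for the 36 and the 31, so they are no result about the members. For the age comparison 4.46% of all genes were higher and 3.13% lower. With any 1 array omitted, 0 to 1 members passed in the age comparison (1, *Ccl8*, without the old male) and 0 to 2 in the daily steps (0 without the E19.5 male, 2 without the E19.5 mixed array), where leaving out genes under 5 before fitting gave 2. Over the 12 stages, 34 members passed, 11 when genes under 5 were left out first (at most 12 were then possible) and 20 with the 30 embryonic arrays only. Quantile renormalization gave 1 member for the interaction of sex with maturity. The sex labels name the sex and not a shared animal. With the sex label as replicate block from E12.5 on, 4 members passed against young adults and 4 against E19.5, as without it. Low signal limits what can be said of the 35 members under 5, the study's limit of expression.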
